A study of Mus musculus with 19 samples.

Results

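Immune checkpoint receptors and ligands were examined in primary p53/MCA sarcomas of mice with and without lymphocytes. The 10 genes were given by name and are 10 of the 48795 gene identifiers in the data. They are the receptors Pdcd1, Ctla4, Lag3, Havcr2 and Tigit, the ligands Cd274, Pdcd1lg2, Cd80 and Cd86, and the enzyme Ido1. RNA sequencing values were analysed for 19 tumors, 11 labelled Rag2-/- and 8 labelled Rag2+/-. Each tumor was started in the gastrocnemius muscle of a mouse aged 6 to 10 weeks with Adeno-sgp53-Cas9, an adenovirus that carries Cas9 and a guide RNA against Trp53. The carcinogen 3-methylcholanthrene (MCA) was injected next, 300 µg at 6 µg/µl in sesame oil. Both genotypes received the same induction and no further treatment, and tumors were collected at about 70 to 150 mm3. The mice were littermates, and each library is 1 whole tumor, so the RNA comes from cancer cells, immune cells and remaining muscle together. Rag2 is needed to assemble antigen receptors, so Rag2-/- mice lack mature T and B cells but keep NK cells and myeloid cells. The labels do not say which tumors were induced together, and p-values measure only the spread between these tumors.

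Checkpoint receptors sit mainly on T and NK cells and dampen their activity when they meet a ligand. PD-1, encoded by Pdcd1, binds PD-L1 (Cd274) and PD-L2 (Pdcd1lg2) on tumor and myeloid cells, and CTLA-4 competes with the activating receptor CD28 for CD80 and CD86 on antigen-presenting cells. Interferon gamma from T and NK cells is a known inducer of Cd274 and Ido1.

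Values are the authors' log2 of upper-quartile normalized FPKM, a fragment count scaled by transcript length and library size, with 0.1 added first. They are therefore per length, and -3.32, the floor, is a gene with no fragments. All differences below are log2 values in Rag2-/- minus Rag2+/- tumors. Fold changes on this scale understate changes of genes near the floor. The step of the lowest values gave an estimated 27.1 M to 31.6 M fragments on genes in 10 Rag2-/- tumors and 5.23 M in S41, a shallow Rag2-/- tumor. It gave 25.3 M to 33.7 M in 7 Rag2+/- tumors, and no estimate could be made for S56. The number of fragments behind each member is therefore an estimate, and is given where it is small. Rag2 itself averaged -0.34 ± 0.74 (SD, n = 11) in the Rag2-/- group against -1.31 ± 0.70 (SD, n = 8) in the Rag2+/- group. Its RNA was thus not lower in the tumors labelled Rag2-/-, and a value for the complete gene leaves the transcribed part unknown. Cd3e, a chain of the T cell receptor complex, was at the floor in 11 of 11 tumors labelled Rag2-/- and detected in 8 of 8 labelled Rag2+/-. Rag1 was at the floor in 6 of 11 and 7 of 8 tumors, and Trp53 RNA was present in all 19, at medians of 4.25 and 4.12.

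A tumor of each genotype stood apart. S51, Rag2-/-, had the highest mean of 14 interferon gamma response genes of all tumors, at 7.91 against 3.91 to 5.28 in the other Rag2-/- tumors, and the highest mean of 12 skeletal muscle genes of its genotype, at 10.7. S56, Rag2+/-, had the highest muscle mean of all tumors, at 12.1, and the lowest mean of 14 macrophage genes, at 4.10. Results are therefore also given without these 2 tumors, a setting chosen after seeing the data.

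Ctla4 was the only member past the threshold between genotypes, and it was lower in the tumors labelled Rag2-/-. Of the 17839 genes tested with limma, 37 were lower in Rag2-/- tumors at an adjusted p under 0.05, which is 0.207% of genes, and 0 (0%) were higher. At an unadjusted p under 0.05 there were 2714 of the 17839 genes in both directions together. They were not counted by direction, so unadjusted counts of members or lists in a given direction have no matching share. All 10 members passed the filter on low values. Of these, 1 was lower and 0 were higher, and 3 had an unadjusted p under 0.05, all lower (Ctla4, Pdcd1 and Tigit). The median difference was -0.24 over the 10 members and 0.07 over all genes tested. No member separated the genotypes completely in all 19 tumors, where 0.0785% of genes did so with every Rag2-/- tumor below every Rag2+/- tumor.

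**Figure D1:**
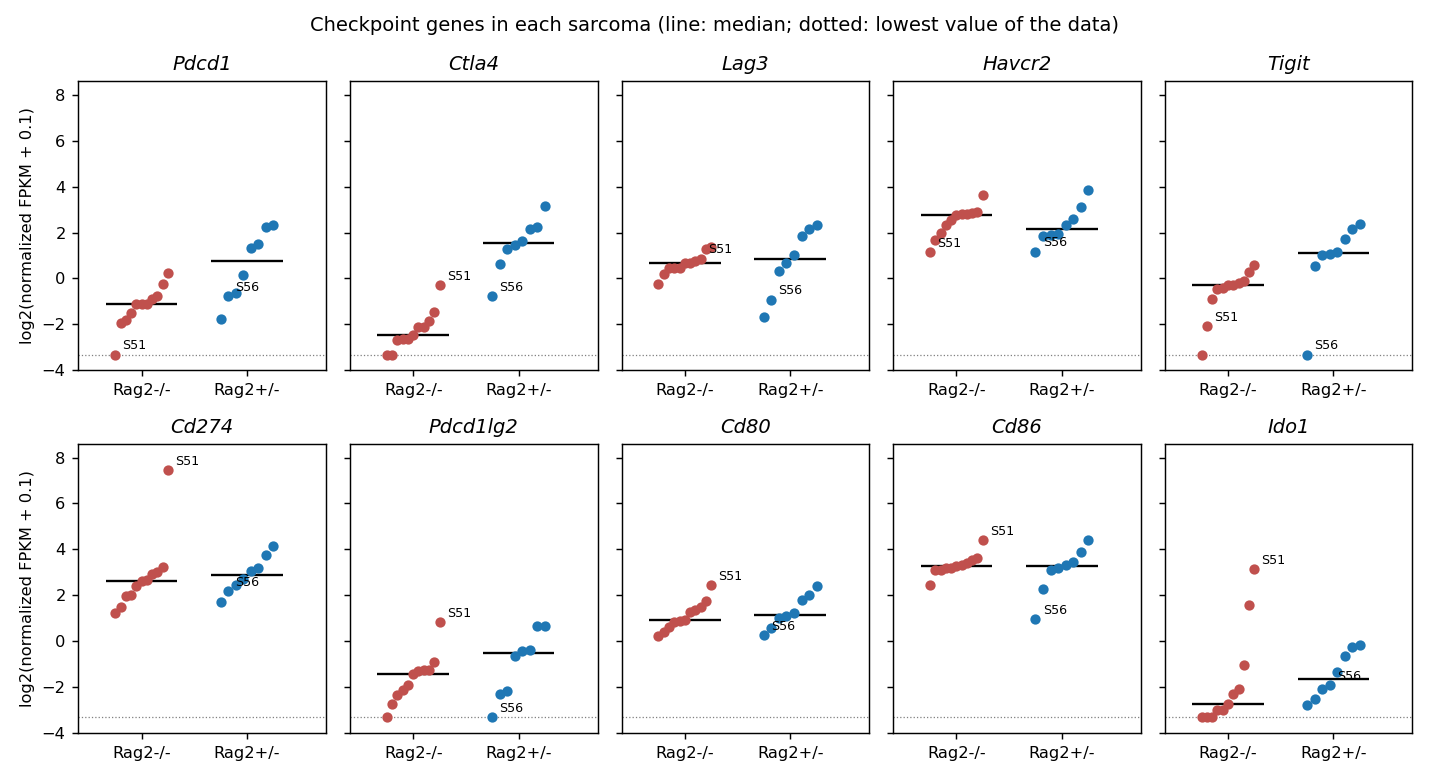
Values of the 10 genes in each of 11 Rag2-/- (red) and 8 Rag2+/- (blue) tumors, as log2(normalized FPKM + 0.1), with the median of each group as a line and the lowest value of the data dotted. Ctla4 lies above 0 in 7 of 8 Rag2+/- tumors and below 0 in every Rag2-/- tumor, while Cd274 and Ido1 have S51 as their highest point.

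Ctla4 (ENSMUSG00000026011, GRCm38 chromosome 1, 60887000 to 60915832, plus strand) encodes the receptor that outcompetes CD28, and regulatory T cells are known for high levels of it. The 250 bases before its RefSeq start site (GRCm38.p6, chr1:60908775-60909024, plus strand) are shown because it is the member that passed the test. The gene span above is that of GENCODE vM21 and starts earlier, so this window lies inside it. Capitals mark an NFAT core, searched as GGAAA on both strands and here read on the minus strand, at position -144 from the start.

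Ctla4: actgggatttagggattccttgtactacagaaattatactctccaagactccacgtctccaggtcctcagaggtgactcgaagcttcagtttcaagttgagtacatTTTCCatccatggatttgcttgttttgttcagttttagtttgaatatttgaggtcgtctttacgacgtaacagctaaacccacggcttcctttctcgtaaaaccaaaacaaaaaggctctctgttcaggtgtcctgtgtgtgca

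In the Rag2-/- tumors the lowest, median and highest value of Ctla4 were -3.32, -2.45 and -0.30, which rest on an estimated 0 to 21 fragments with a median of 4. In the Rag2+/- tumors they were -0.78, 1.54 and 3.13, with 66 to 402 fragments and a median of 148 over the 7 tumors with an estimate. S51 was the highest Rag2-/- tumor and S56 the lowest Rag2+/- tumor, and the groups overlapped only between these. Group means of -2.26 ± 0.86 (SD, n = 11) and 1.46 ± 1.18 (SD, n = 8) gave a difference of -3.72 with a 95% confidence interval of -4.67 to -2.78 and an adjusted p of 9.25e-05 (limma). The two-sided exact permutation test over 75582 relabelings gave p = 2.65e-05, or 0.0262 adjusted over all genes tested. Without S51 and S56 the difference was -4.24. In the 15 tumors shown in the study's figures, 8 Rag2-/- and 7 Rag2+/-, it was -4.13 and the groups did not overlap, as for 0.241% of genes.

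T cell genes were lower in the same tumors as Ctla4. The mean of 17 T cell genes lay between -1.80 and -0.92 in the Rag2-/- tumors and between 0.31 and 2.61 in the Rag2+/- tumors, and 9 of the 17 were lower at an adjusted p under 0.05, led by Trac (-5.32), Cd3e (-4.80), Cd3d (-4.46) and Cd3g (-4.59). Of 8 genes of regulatory T cells, 3 were lower: Tnfrsf18 (-2.16), Foxp3 (-1.71), their lineage factor, and Ccr8 (-2.03). Foxp3 was above the floor in every Rag2-/- tumor, with values of -2.60 to -0.66. Cd8a lay at or below -1.52 in each Rag2-/- tumor, while Cd4, which macrophages can also express, had a median of 0.57 there and 1.69 in Rag2+/- tumors. In whole-tumor RNA, fewer cells of a type and less RNA per cell cannot be told apart, and the part of T cell number in the Ctla4 difference was not tested. The mean of the muscle genes was 3.40 to 10.7 in Rag2-/- and 5.64 to 12.1 in Rag2+/- tumors. With that mean as a covariate the Ctla4 difference was -3.56 (limma, adjusted p = 9.87e-04), and with Xist, a measure of sex, it was -3.68.

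Pdcd1 (ENSMUSG00000026285, chromosome 1, 94038305 to 94052553, minus strand), the PD-1 receptor of activated T cells, did not pass after adjustment. Its lowest, median and highest value were -3.32, -1.11 and 0.23 in Rag2-/- tumors and -1.76, 0.75 and 2.34 in Rag2+/- tumors. That is an estimated 0 to 37 fragments, with a median of 17, against 9 to 279. Only 4 Rag2+/- tumors lay above every Rag2-/- tumor. S53 at -1.76, S56 at -0.78, S60 at -0.61 and S54 at 0.17 lay inside the Rag2-/- range. The top of that range was the shallow tumor S41, with an estimated 10 fragments, and the next was S47 at -0.23. The difference was -1.79 with an interval of -2.91 to -0.67 and an unadjusted p of 0.00333, which became 0.303 after adjustment over all genes (limma). Without S51 and S56 it was -1.77 (limma, adjusted p = 0.182). S51, the tumor with the most Cd274, was the only Rag2-/- tumor with Pdcd1 at the floor.

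Tigit (ENSMUSG00000071552, chromosome 16, 43648867 to 43664146, minus strand), a receptor of T and NK cells, was also not past the threshold. Its values ran from -3.32 through a median of -0.30 to 0.57 in Rag2-/- tumors, and from -3.32 through 1.11 to 2.36 in Rag2+/- tumors. S56 was at the floor for Tigit, while the other 7 Rag2+/- tumors lay at 0.53 or above and 6 of them above every Rag2-/- tumor. The difference was -1.49 (interval -2.80 to -0.18), with an unadjusted p of 0.0280 and an adjusted p of 0.316 (limma). It was -1.94 without S51 and S56, where the adjusted p was 0.0706 (limma), and the interval was -2.85 to -1.02. The interval included 0 with a pseudocount of 0.01 (-3.72 to 0.67) and without S55, S58 or S59, where its upper end was 0.083, 0.066 and 0.022.

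Lag3 and Havcr2 RNA was present in every tumor of both genotypes, and no difference was detected for either. Lag3 (ENSMUSG00000030124, chromosome 6, 124904361 to 124911705, minus strand), a receptor for MHC class II on T and NK cells, ran from -0.22 through 0.66 to 1.38 in Rag2-/- tumors and from -1.69 through 0.86 to 2.31 in Rag2+/- tumors. The Rag2+/- tumors lay on both sides of the Rag2-/- range: 3 were above all of it and 2 (S53 and S56) below all of it. The SD was 0.45 and 1.45. The difference was -0.09, with an interval of -1.01 to 0.84 (limma, adjusted p = 0.924), and without S51 and S56 it was -0.35. Havcr2 (ENSMUSG00000020399, chromosome 11, 46454935 to 46481255, plus strand), which encodes TIM-3 of exhausted T cells and of myeloid cells, had medians of 2.76 and 2.14. Its difference was 0.14 with an interval of -0.55 to 0.84 (limma, adjusted p = 0.820), and 0.11 without S51 and S56. S51 and S56 were the lowest tumors of their genotypes, at 1.15 and 1.16. These intervals leave room for a change of about 1 on the log2 scale in either receptor.

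**Figure D2:**
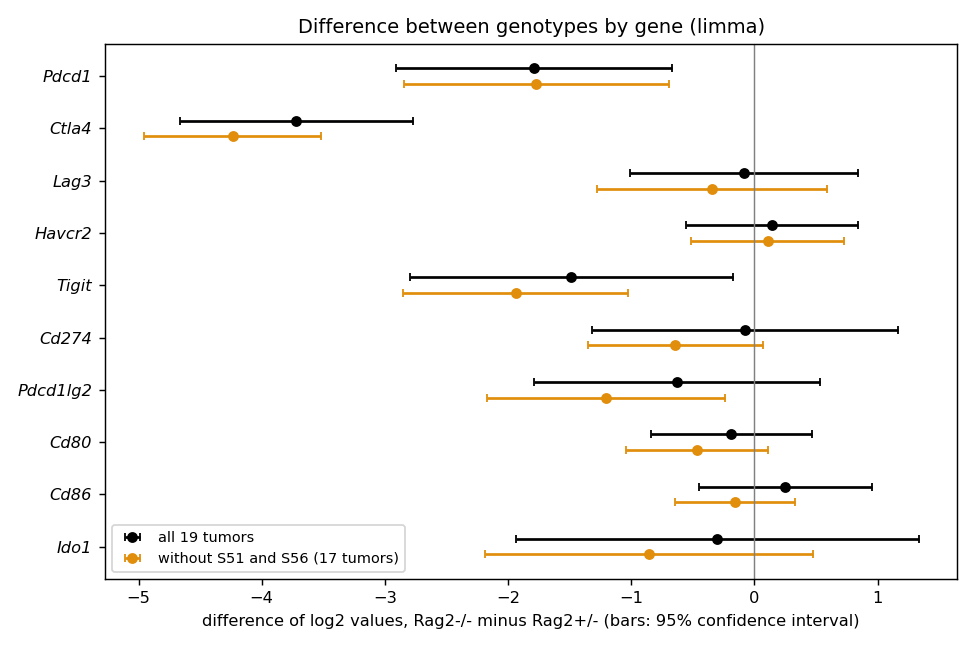
Difference in mean log2 value, Rag2-/- minus Rag2+/-, for each gene, with 95% confidence intervals from limma, in all 19 tumors (black) and without S51 and S56 (orange). Ctla4 is at -3.72 and -4.24, the Pdcd1 and Tigit intervals lie below 0, and the other intervals include 0 except that of Pdcd1lg2 without the 2 tumors.

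The NK cell list is given beside these receptors, since NK cells remain in Rag2-/- mice. Its mean over 12 genes was 1.47 ± 0.57 (SD, n = 11) in Rag2-/- against 0.61 ± 1.004 (SD, n = 8) in Rag2+/- tumors. The lowest Rag2+/- tumor was S56 at -1.46, with the next at -0.01, and the lowest Rag2-/- tumor was S48 at 0.29. None of the 12 genes passed, and 6 were higher at an unadjusted p under 0.05. The extremes were Gzma, a granzyme, at 1.96 (limma, adjusted p = 0.146) and Nkg7 at -0.11. Ncr1, the NKp46 receptor, had medians of 1.18 and -0.42.

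Cd274 and Pdcd1lg2, the genes of the PD-1 ligands, are neighbors on the plus strand of GRCm38 chromosome 19, at 29367455 to 29388095 (ENSMUSG00000016496) and 29410919 to 29471161 (ENSMUSG00000016498). Their upstream sequences are shown because they are neighbors that encode the ligands of 1 receptor. Both had their highest value of all tumors in S51, as did Cd80 and Ido1. The windows are chr19:29367188-29367437 and chr19:29410669-29410918 (GRCm38.p6, RefSeq), and capitals mark the GGAAA core at positions -120 and -22 from the start.
Cd274: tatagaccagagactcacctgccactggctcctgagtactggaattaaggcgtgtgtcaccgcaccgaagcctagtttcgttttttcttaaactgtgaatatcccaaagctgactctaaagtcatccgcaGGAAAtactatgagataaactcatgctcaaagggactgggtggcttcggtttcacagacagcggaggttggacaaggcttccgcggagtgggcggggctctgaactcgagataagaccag
Pdcd1lg2: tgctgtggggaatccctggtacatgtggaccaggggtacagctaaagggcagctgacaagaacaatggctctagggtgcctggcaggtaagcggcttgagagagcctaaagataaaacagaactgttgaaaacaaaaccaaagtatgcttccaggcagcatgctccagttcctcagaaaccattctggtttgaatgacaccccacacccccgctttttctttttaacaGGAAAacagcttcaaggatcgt

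RefSeq promoters were at hand for 7 of the 10 members, all except Lag3, Cd86 and Ido1. Searched on both strands in the same 250 bases, the ISRE core (GAAA, any 2 bases, GAAA) was in 0 of the 7 and in 2.98% of 32851 promoters. The NFAT core was in 5 of the 7 and in 55.57% of all promoters, and the AP-1 motif (TGANTCA) was in 2, Havcr2 and Cd80, and in 6.75%. The ISRE letters can overlap the NFAT core, but no match overlapped one of another motif here. These matches describe letters and not binding.

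The ligands of PD-1 did not differ between genotypes at the threshold. Cd274 ran from 1.23 through a median of 2.61 to 7.45 in Rag2-/- tumors and from 1.69 through 2.89 to 4.16 in Rag2+/- tumors. The Rag2-/- tumors S48 and S50 lay below every Rag2+/- tumor, and the Rag2+/- tumors S55 and S59 lay above every Rag2-/- tumor except S51. At 7.45, S51 had 29.1 times the median normalized FPKM of its genotype and an estimated 9604 fragments against a median of 470. The next Rag2-/- tumor, S46, was at 3.25. The difference was -0.08 with an interval of -1.32 to 1.17 (limma, adjusted p = 0.952), and without S51 and S56 it was -0.64 with an interval of -1.35 to 0.07 (limma, adjusted p = 0.298). In the 15 tumors of the study's figures it was -0.78 with an interval of -1.53 to -0.04 (limma, adjusted p = 0.237). Of the exonic bases of Cd274, 511 of 3622 overlap AC119228.1 on the opposite strand, and reads there cannot be told apart without strand. Pdcd1lg2 lay 4.44 below Cd274 on average in Rag2-/- tumors and 3.89 below it in Rag2+/- tumors. It ran from -3.32 through -1.44 to 0.83 in Rag2-/- tumors and from -3.32 through -0.54 to 0.68 in Rag2+/- tumors. It rests on at most 46 estimated fragments in any tumor. Its difference was -0.63 (interval -1.79 to 0.53, limma adjusted p = 0.533), and -1.20 without S51 and S56 (interval -2.17 to -0.24, limma adjusted p = 0.215). With 1 tumor left out at a time it ran from -0.96 without S56 to -0.39 without S59 or S60.

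Cd80 and Cd86, the B7 ligands of CTLA-4 and CD28 on antigen-presenting cells, were present in every tumor. Cd80 (ENSMUSG00000075122, chromosome 16, 38455561 to 38496335, plus strand) had medians of 0.90 in Rag2-/- and 1.15 in Rag2+/- tumors. Its highest value was 2.44 (S51) in the former and 2.39 (S55) in the latter. The difference was -0.19 with an interval of -0.84 to 0.47 (limma, adjusted p = 0.747). It was -0.47 without S51 and S56 (limma, adjusted p = 0.343), and with 1 tumor left out at a time it ran from -0.33 without S56 to -0.029 without S55. Cd86 (ENSMUSG00000022901, chromosome 16, 36603869 to 36666081, minus strand) had the highest median of all members in both genotypes, 3.28 and 3.26. It varied little among Rag2-/- tumors (SD 0.47) and more among Rag2+/- tumors (SD 1.06), where S56 was at 0.95 and S55 at 4.40. Its difference was 0.25 (interval -0.45 to 0.96, limma adjusted p = 0.683), and -0.16 without S51 and S56. The macrophage mean was 5.77 ± 0.44 (SD, n = 11) in Rag2-/- against 5.44 ± 0.57 (SD, n = 8) in Rag2+/- tumors. S56 at 4.10 lowered the latter, with the next lowest Rag2+/- tumor at 5.33. Of the 14 macrophage genes 0 passed, with Fcgr1 at 0.71 and Cd163 at -0.31 as the extremes.

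Ido1 (ENSMUSG00000031551, chromosome 8, 24584136 to 24597009, minus strand), the interferon-inducible enzyme that breaks down tryptophan, was near the floor in most Rag2-/- tumors. Its lowest, median and highest value there were -3.32, -2.74 and 3.14, with 3 of 11 tumors at the floor and a median of 1 estimated fragment. Only S51 at 3.14 and S47 at 1.58 had a log2 value above 0. In Rag2+/- tumors the values were -2.80, -1.63 and -0.16, with no tumor at the floor and 2 to 32 fragments. The difference was -0.30 with an interval of -1.94 to 1.33 (limma, adjusted p = 0.843). It was -0.79 without S51, -0.64 without S47, -0.11 without S55 and -0.86 without S51 and S56 (limma, adjusted p = 0.445 for the last). Of 9 tested genes of 10 that turn tryptophan into kynurenine and its products or sense it, 0 passed, and the median difference was -0.01. The extremes were Haao at 0.68 and Kyat1 at -0.96.

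Within a tumor, the level of the B7 ligands relative to Ctla4 was higher in Rag2-/- than in Rag2+/- tumors. Cd86 minus Ctla4 was 4.65 to 6.92 in tumors labelled Rag2-/- and 0.97 to 2.002 in those labelled Rag2+/-, with means of 5.58 ± 0.73 (SD, n = 11) and 1.61 ± 0.33 (SD, n = 8). Cd80 minus Ctla4 was 2.74 to 4.37 and -0.74 to 1.04, and Cd80 was above Ctla4 in 11 of 11 Rag2-/- but only 1 of 8 Rag2+/- tumors, S56. Neither pair overlapped between genotypes, and both differences, 3.97 and 3.53, had an adjusted p of 3.97e-05 over 6 pairs (two-sided exact permutation test), which comes from the smallest p the design allows, 1.32e-05. Each of these differences is the ligand's own difference minus that of Ctla4, so the tests restate the Ctla4 result and are not separate from it.

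The other 4 pairs did not pass. Cd274 minus Pdcd1 was positive in 11 of 11 and 8 of 8 tumors. Its means of 4.06 ± 2.38 (SD, n = 11) and 2.35 ± 1.20 (SD, n = 8) differed by 1.71 (exact permutation test, p = 0.0454, adjusted p = 0.0907). Pdcd1lg2 minus Pdcd1 differed by 1.16 (adjusted p = 0.220), Cd86 minus Cd80 by 0.44 (adjusted p = 0.105) and Cd274 minus Pdcd1lg2 by 0.55 (adjusted p = 0.245) in the same exact permutation tests. Without S51, Cd274 minus Pdcd1 differed by 1.04 (exact permutation test, adjusted p = 0.0945). Pdcd1lg2 minus Pdcd1 differed by 0.71 without S51 and by 0.74 without S58. Over 24 alternative settings, Cd86 minus Cd80 differed by 0.19 to 0.52 and Cd274 minus Pdcd1lg2 by 0.23 to 0.78.

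**Figure D3:**
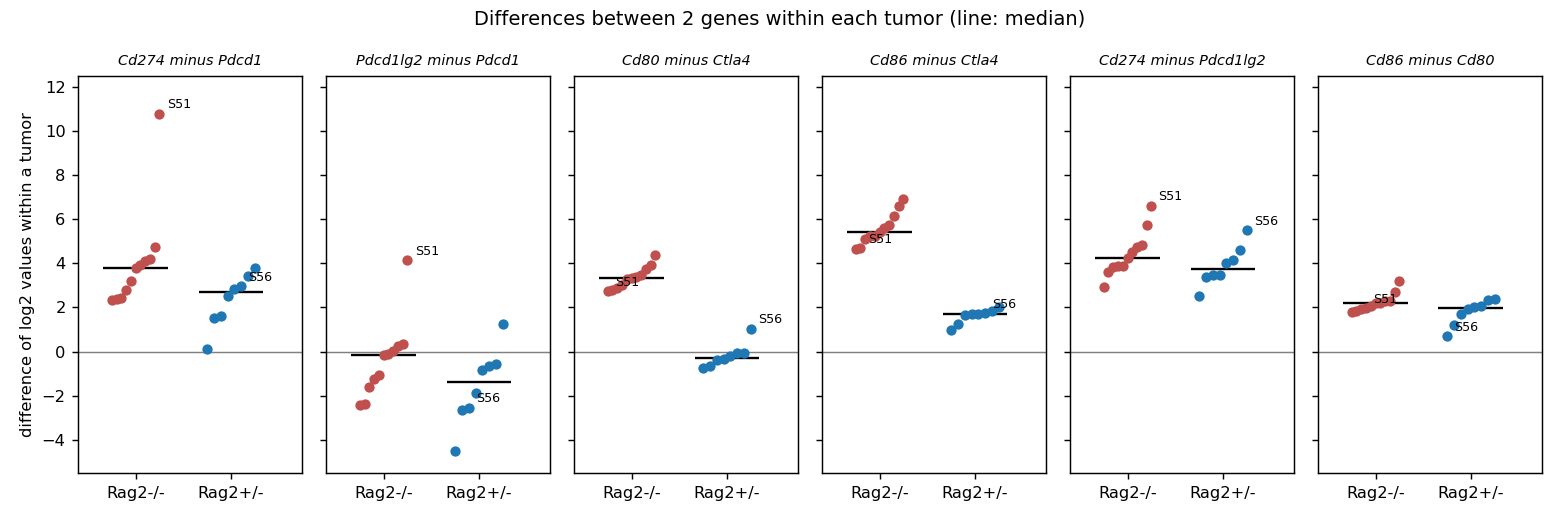
Difference between the log2 values of 2 genes in the same tumor for 6 pairs, in 11 Rag2-/- (red) and 8 Rag2+/- (blue) tumors, with medians as lines. Cd80 minus Ctla4 and Cd86 minus Ctla4 separate the genotypes, with the lowest Rag2-/- tumor at 2.74 and 4.65 and the highest Rag2+/- tumor at 1.04 and 2.002.

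The order of the levels, which can be compared because FPKM is per length, was led by Cd86, Havcr2 and Cd274 in Rag2-/- tumors and by Cd86, Cd274 and Havcr2 in Rag2+/- tumors. Ctla4 ranked 9 of 10 by median in the former and 4 of 10 in the latter. The ranges of all neighbors in both orders overlapped. Within tumors, Cd274 was above its next neighbor Cd80 in 11 of 11 Rag2-/- tumors, whereas Havcr2 was above Cd274 in only 7 of 11 and Lag3 above Pdcd1 in 4 of 8 Rag2+/- tumors.

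S51 was singled out after its values were seen, and 6 members were higher there than in the other 10 Rag2-/- tumors. They were Cd274, Pdcd1lg2, Ctla4, Cd80, Cd86 and Ido1, which include all the ligands. Pdcd1, Havcr2 and Tigit lay 2.21, 1.63 and 1.79 below the median of those 10 tumors, and Lag3 lay 0.30 above it. The share of 6 in 10 stands beside 25.3% of all genes tested for which S51 was above the other 10. All 14 interferon gamma response genes were also highest in S51, by a median of 3.10 over the median of those tumors, with Cxcl9 at 8.72 against 4.12. Ifng itself was at 2.43 against a next value of -0.50. Of the 12 genes of interferon gamma signaling and PD-L1 regulation, 8 were above all other Rag2-/- tumors in S51. These included Ifng, Ifngr2, Jak2, Irf1, Socs1 and Nlrc5, while Ifngr1, Jak1, Cmtm6 and Cmtm4 were not above all others. S51 also had the lowest mesenchymal mean of all tumors, 5.39, and the lowest macrophage mean of its genotype, 5.19, and the part of tissue make-up in these values was not tested.

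**Figure D4:**
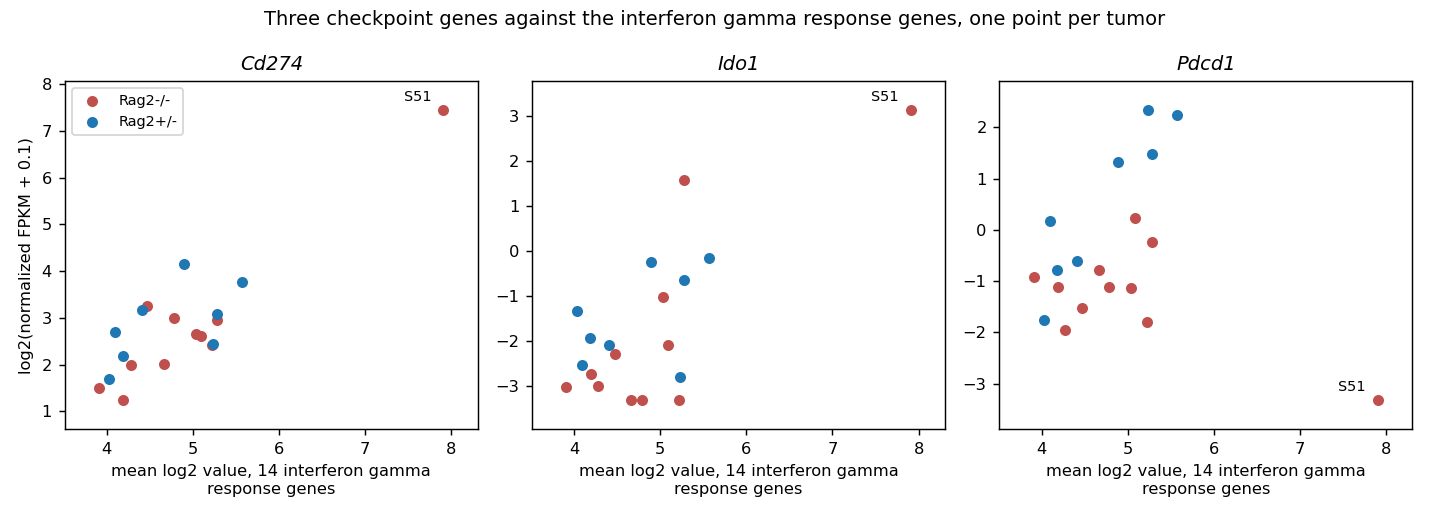
Log2 values of Cd274, Ido1 and Pdcd1 in each tumor against the mean log2 value of 14 interferon gamma response genes, with Rag2-/- tumors in red and Rag2+/- tumors in blue. S51 lies far to the right at 7.91, with Cd274 at 7.45, Ido1 at 3.14 and Pdcd1 at the lowest value of the data, -3.32.

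Correlations of each member with the mean of the T cell, NK cell, macrophage and interferon gamma response lists were computed within each genotype, 80 in all. By Pearson's r, 18 had an adjusted p under 0.05 in permutation tests, 5 among Rag2-/- and 13 among Rag2+/- tumors, and by Spearman's rho 0 had. In Rag2-/- tumors the 5 were Cd274, Pdcd1lg2, Cd80, Cd86 and Ido1 with the interferon gamma response. For Cd274, r was 0.94 (permutation p = 0.00198, adjusted p = 0.0349, n = 11) and rho 0.67 (permutation p = 0.0274, adjusted p = 0.131), and r was 0.54 without S48 and S51. Over the 5 genes r fell to 0.14 to 0.54 without those 2 tumors, so these relations rest on them. The T cell list stayed among the 80 for Rag2-/- tumors, although Cd3e was at the floor in 11 of 11. Its mean there cannot measure T cells.

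In Rag2+/- tumors, Pdcd1 followed the T cell list most closely of the receptors, with r = 0.94 (exact permutation p = 0.00213, adjusted p = 0.0349, n = 8) and rho = 0.90 (exact permutation p = 0.00456, adjusted p = 0.0913). Its r was 0.93 without S53 and S56, the tumors farthest from the median of that list. For Ctla4 with the T cell list r was 0.82 (exact permutation p = 0.00801, adjusted p = 0.0401) and rho 0.83 (exact permutation p = 0.0154, adjusted p = 0.131), but r was 0.50 without those 2 tumors. For Cd86 with the NK cell list r was 0.96 (exact permutation p = 3.22e-04, adjusted p = 0.0179) and rho 0.90 (exact permutation p = 0.00456, adjusted p = 0.0913), and r was 0.77 without them. Tigit with the macrophage list went from r = 0.97 to 0.50 without S55 and S56. The 13 relations had an r of 0.23 to 0.95 once the 2 tumors were left out. Pdcd1 had r = 0.80 and rho = 0.90 with the NK cell list as well. Cd86 had r = 0.88 with the T cell list and 0.89 with the macrophage list. The list means moved together: S55 had the highest of each, and S56 the lowest T cell, NK cell and macrophage mean. Cell types can therefore not be told apart in these relations.

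The genes whose values were most like those of each member, by Pearson's r of values centred within each genotype over 19 tumors, are given as a description. For Cd274 they were Creb3 (r = 0.96), the interferon-inducible GTPase gene Igtp (0.94) and the complement gene Cfb (0.94), and without S51 these were 0.83, 0.76 and 0.94. For Ido1 they were Gm16181, Igtp and Iigp1 (0.87, 0.83 and 0.82), and without S51 these were 0.78, 0.63 and 0.61. For Pdcd1lg2 they were 4930512H18Rik, E230013L22Rik and Bcl2l14 (0.87 to 0.88). The first for Ctla4 was another member, Cd80 (0.88), followed by Il1a (0.86) and Bcl2l14 (0.85). Those of Cd80 were Efcc1 (0.91), Ctla4 and Mcemp1 (0.86), and those of Cd86 were Id2 (0.94), Mefv and E230013L22Rik (both 0.91). For Pdcd1 they were Tespa1, a T cell signaling gene (0.83), Grap2 (0.82) and Caps2 (0.80), and for Lag3 Igkv14-111, Rab19 and Dennd1c (0.82 to 0.85). Havcr2 was most like Dennd4a, B4galt1 and Rtl9 (0.88 to 0.91), and Tigit most like 1500002C15Rik, C1qtnf12 and Brd9 (0.83 to 0.91). Among so many genes high values of r arise with 19 points, and all share the same libraries.

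Other genes of the same families did not pass either. Of 13 further B7/CD28 family members and inhibitory receptors, 0 passed in either direction, 2 were lower and 1 was higher at an unadjusted p under 0.05, and the median difference was 0.18. Icos, a costimulatory receptor of activated T cells, had the lowest difference, -2.07 (limma, adjusted p = 0.121), and Klrg1, a receptor of NK and T cells, the highest, 1.42 (limma, adjusted p = 0.316). Of 12 tested genes of 14 further ligands, 0 passed, with Icosl at 0.68 and Ceacam1 at -0.36 as the extremes and a median of 0.20. Of 12 genes of interferon gamma signaling and PD-L1 regulation 0 passed, with Nlrc5 at 0.48 and Ifngr2 at -0.31 and a median of 0.14. Of the 14 interferon gamma response genes 0 passed, with Cxcl10 at 0.92 and Cxcl9 at -0.46 and a median of 0.27.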

How the data were processed

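RNA of 19 primary p53/MCA sarcomas was sequenced as 150 bp read pairs from NEBNext Ultra II libraries. The authors aligned reads to mouse B38 with the Omicsoft Sequence Aligner, quantified Ensembl R86 genes and deposited log2 values of upper-quartile normalized FPKM, 1 column per tumor. The minimum of -3.32 shows that 0.1 had been added. The submitters' processing notes also name mm10, Trimmomatic 0.36, STAR 5.5.4b and HTSeq, with no role given. Of the columns, 0 were unmatched to a tumor. The deposited log2 values are no counts, so no count model was used.

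Genes with a normalized FPKM above 0.1 in at least 5 tumors entered limma 3.58.1 in R 4.3.3. The variance prior followed an intensity trend, and p-values were adjusted by Benjamini-Hochberg over all 17839 genes, with 0.05 as the threshold. On simulated data for this comparison, with 17839 genes, 77% of changes of 2 and 99% of changes of 4 on the log2 scale were recovered, and 6.38% of calls were false. Single values were compared by two-sided exact permutation, and correlations by all pairings (8 tumors) or 100000 permutations (11 tumors), in Python 3.11.15 with numpy 2.4.6, pandas 2.3.3 and scipy 1.17.1. Depth was estimated from the step of low values of single-transcript genes in GENCODE vM21 (GRCm38), with 79.3% to 91.5% of these whole within 0.05 of a fragment in 18 tumors and 43.7% in S56. These estimates cover counting error only.

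The members and the 16 other gene lists were chosen with earlier results of these data known. The text names every member, Rag2, Rag1, Trp53, Cd3e, Cd8a, Cd4, Foxp3 and Ncr1, up to 4 called genes of a list or else the genes with its largest and smallest difference, and the 3 genes most like each member. Xist, a covariate, and Ifng, Jak1, Jak2, Irf1, Socs1, Ifngr1, Cmtm6 and Cmtm4 were named after their values were seen. Alternatives were the 15 tumors of the study's figures, each tumor left out, pseudocounts of 1 and 0.01, other filters, quantile normalization, a median shift, other variance models, a permutation test per gene, and the muscle mean or Xist as a covariate. The removal of S51 and S56 together was added after seeing the data. The labels pair no tumors across genotypes. Exome data were not analysed here, and 1 gene of the lists and 1 motif searched are not reported here.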

Additional observations from a re-analysis of the deposited data

Results flagged for a closer look

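In the Rag2+/- group, Tigit in S56 was at -3.32, a value of 0 fragments, while the next tumor was at 0.53. This gap is 0.678 of the whole range of the 8 tumors and is larger than Dixon's critical value allows. The 10 members were each checked in this group, and chance flags about 1 in 20 groups. The check was not run on the 11 Rag2-/- tumors, so S51 was not assessed in this way.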

How the results depend on the processing

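Ctla4 was lower in Rag2-/- tumors with an adjusted p under 0.05 in every alternative that tested it. Its difference ran from -4.90 to -1.76 and its adjusted p from 3.54e-07 to 0.0262. A filter on a mean log2 value above 0 left 5 of the 10 members, without Ctla4, of which 0 passed, and 4 genes passed as lower. The exact permutation test per gene called 20 genes lower and 1 higher. Genes called higher numbered 14 in the 15 tumors, 5 without S51 and S56, 2 after quantile normalization, 2 after the median shift, 1 without S41, 1 with robust variance and 1 with the muscle covariate. They numbered 0 to 13 when each tumor was left out in turn, with 13 without S51.

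Pdcd1, Tigit and Pdcd1lg2 were lower in Rag2-/- tumors in every alternative that tested them and passed in 0, but Pdcd1lg2 was at only -0.031 with the muscle covariate, and Pdcd1 and Tigit at -0.94 and -0.93 with a pseudocount of 1. Pairs were tested in the 15 tumors, without S41, with each tumor left out, with both pseudocounts and without S51 and S56. The pairs of Cd80 or Cd86 with Ctla4 passed in each of these, and the other 4 pairs in 0. The small differences of the other members changed sign, and the cause was not tested. With the muscle covariate they were 0.65 for Cd274, 0.65 for Ido1, 0.045 for Lag3, 0.12 for Cd80 and -0.15 for Havcr2. With Xist they were 0.14 for Cd274, 0.002 for Lag3 and -0.038 for Havcr2. Cd86 was at -0.20 in the 15 tumors and at -0.16 without S51 and S56, and Ido1 at 0.16 with a pseudocount of 1 but at -1.26 with 0.01. Leaving out each tumor gave -0.54 to 0.10 for Cd274, -0.43 to 0.14 for Lag3, -0.025 to 0.36 for Havcr2 and -0.051 to 0.44 for Cd86. Of the 18 correlations that passed by r, 0 passed without the 2 tumors farthest from the median. Rag2+/- groups then held 6 tumors, at which the permutation test could hardly pass, so these lost calls say nothing about stability. Among them r was still 0.95 for Pdcd1 with the NK cell list, 0.91 for Pdcd1 and 0.83 for Lag3 with the interferon gamma response, and 0.23 for Cd86 with the macrophage list. Of the 18, 2, Pdcd1 with the T cell and NK cell lists, passed in the 15 tumors.

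No paired analysis was possible because the labels carry no number that joins a Rag2-/- tumor to a Rag2+/- tumor. Low counts limit Ctla4, Pdcd1lg2 and Ido1 in Rag2-/- tumors most.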

Other observations

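Further cell type lists, which share no gene with the checkpoint members, are given by their counts. Of 12 B and plasma cell genes, 8 were tested and 3 were lower in Rag2-/- tumors at an adjusted p under 0.05 (limma): Igkc, an antibody light chain constant region (-9.73), Jchain, which joins antibody subunits (-7.30), and Cd79a, part of the B cell receptor (-2.27). Of 12 dendritic cell genes 0 passed, with a median difference of -0.32 and with Batf3 at 0.63 and Cd209a at -0.63. Of 8 MHC class II genes 0 passed, with a median of -0.08 and with H2-Oa at 0.34 and Cd74 at -0.22. Of 8 neutrophil genes 0 passed, with a median of 0.81 and with S100a9 at 0.996 and Ly6g at 0.03.

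Of 8 endothelial genes 0 passed, with Cldn5 at 0.10 and Vwf at -0.65 and a median of -0.31, and of 9 mesenchymal genes 0 passed, with Twist1 at 0.83 and Vim at 0.13 and a median of 0.38. Of 12 skeletal muscle genes 0 passed (limma), but 10 were lower in Rag2-/- tumors at an unadjusted p under 0.05, with a median of -2.23, Ttn at -1.55 and Acta1 at -2.42.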
